A study of Micromonas commoda with 15 samples.

Results

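In the marine green alga Micromonas commoda, 84 of 10300 counted gene models at least doubled over control with both kinds of metal oxide particle. They stayed near the control level with both salts of the same metals. The members were chosen from the group means of all 15 libraries. For each gene model the level was taken as its count relative to library size (CPM), scaled by trimmed mean of M values (TMM), and the difference of a group from control, called L here, was log2((group mean + 0.5)/(control mean + 0.5)). A member had L of at least 1 with Fe2O3 particles and with ZnO particles, an absolute L below 0.5 with FeCl3 and with ZnSO4, a control mean of at least 1 and below 1000 CPM, and a mean over the 5 groups of at least 5 CPM. Every exposure was therefore used to choose the members, and each value of a particle or a salt against control, or of a particle against its salt, is given below as a description with no test. The rule did not set which particle, or which salt within its limits, gave the higher level, and those differences were tested. It did use the same group means, so counts of direction over the members are descriptions.

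The 15 polyadenylated RNA libraries came from strain RCC299, with 3 libraries in each of 5 groups: an unexposed control, Fe2O3 particles, FeCl3, ZnO particles and ZnSO4. Cultures were kept at 20 °C under 12 h of light and 12 h of dark, the particles or salts were added 24 h after the flasks were prepared, and exposure lasted 48 h. The labels give iron at 2.4 mg/L and a Fe2O3 concentration of 3e-05 M, and zinc at 0.8 mg/L and a ZnO concentration of 1e-05 M, with each salt matched to its particle in metal concentration. The molar figure and the mass figure of a metal are not interchangeable by its atomic weight, and both are given as labelled. The doses of iron and zinc also differed, so a difference between the 2 particles cannot be told apart from a difference in dose. The labels number the replicates without saying whether they were separate cultures, so p-values measure only the spread between these samples, which may be technical.

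Micromonas is a picoplanktonic prasinophyte with a single chloroplast and a compact genome. Iron is a cofactor of photosynthetic and respiratory electron transport, and zinc is a cofactor of many enzymes, while an excess of either metal can be harmful. Zinc oxide particles release zinc ions into water, and ferric oxide dissolves very little at seawater pH. A salt at the same metal concentration is the usual comparison for the ions. No value for dissolved metal was used here, so a salt group is not taken to show the ions alone.

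Control replicate 3 had the lowest total count, 33473041, and FeCl3 replicate 1 the highest, 48969454. TMM factors were between 0.704, in control replicate 1, and 1.34, in ZnSO4 replicate 3, so the scaling bears on every difference from control. All 84 members passed the filter on low counts, which kept 10012 gene models, and a member had between 49 and 29041 reads in a control library. None of the 10300 identifiers matched the RefSeq gene table, so no gene name, role, coordinate or sequence is given, and the members are described by their rank, their levels and 2 of their identifiers. Levels in these bulk samples are relative to library size. Neither cell number nor RNA per cell can be read from them, and the 2 cannot be told apart.

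Doubling with both particles was far more common than membership. Within the limits on level there were 7657 gene models, and 860 of them had L of at least 1 with both particles. Of those 860, 422 (49.1%) had L of at least 0.5 with both salts, 236 (27.4%) passed 0.5 with ZnSO4 and were flat with FeCl3, and 69 (8.02%) passed 0.5 with FeCl3 and were flat with ZnSO4. The 84 members made up 9.77%. The opposite class, with L of -1 or below with both particles and flat in both salts, held 54 gene models.

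Many gene models failed on a single limit, and they are counted here at any distance from it. The limit on ZnSO4 alone kept out 249, that on ZnO particles 117, that on FeCl3 75 and that on Fe2O3 particles 24. The member nearest the ZnO limit had L of 1.001 and the nearest model outside it 0.994, and the corresponding values for Fe2O3 were 1.02 and 0.99. For the size of L the nearest values inside and outside were 0.498 and 0.510 with FeCl3, and 0.488 and 0.502 with ZnSO4. The lowest mean over the 5 groups among the members was 5.19 CPM against 4.96 CPM just outside, where 9 models failed on this limit alone. The highest control mean among the members was 825 CPM, and 1 model failed only on the upper limit, at 1535 CPM.

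The members spanned a wide range of levels. Control means ran from 2.04 to 825 CPM with a median of 16.3 CPM: 27 members lay below 10 CPM, 48 from 10 to 100 CPM and 9 above. The median member had 48.6 CPM with Fe2O3 particles and 52.2 CPM with ZnO particles, against 18.5 CPM with FeCl3 and 19.1 CPM with ZnSO4. L with Fe2O3 particles ran from 1.02 to 4.46 with a median of 1.58, and L with ZnO particles from 1.001 to 3.56 with a median of 1.301. Most members were thus not far above the limit, and 8 had L of at least 2 with both particles.

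The replicates of each particle group gave similar medians over the members. Each library's median L over the members was 1.63, 1.52 and 1.62 with Fe2O3 particles and 1.38, 1.25 and 1.27 with ZnO particles. With ZnSO4 the medians were 0.25, 0.16 and 0.18, and in the controls they were -0.08, 0.03 and 0.02. In FeCl3 they were 0.33, 0.08 and 0.06, so replicate 1 stood above the other two FeCl3 libraries.

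**Figure D1:**
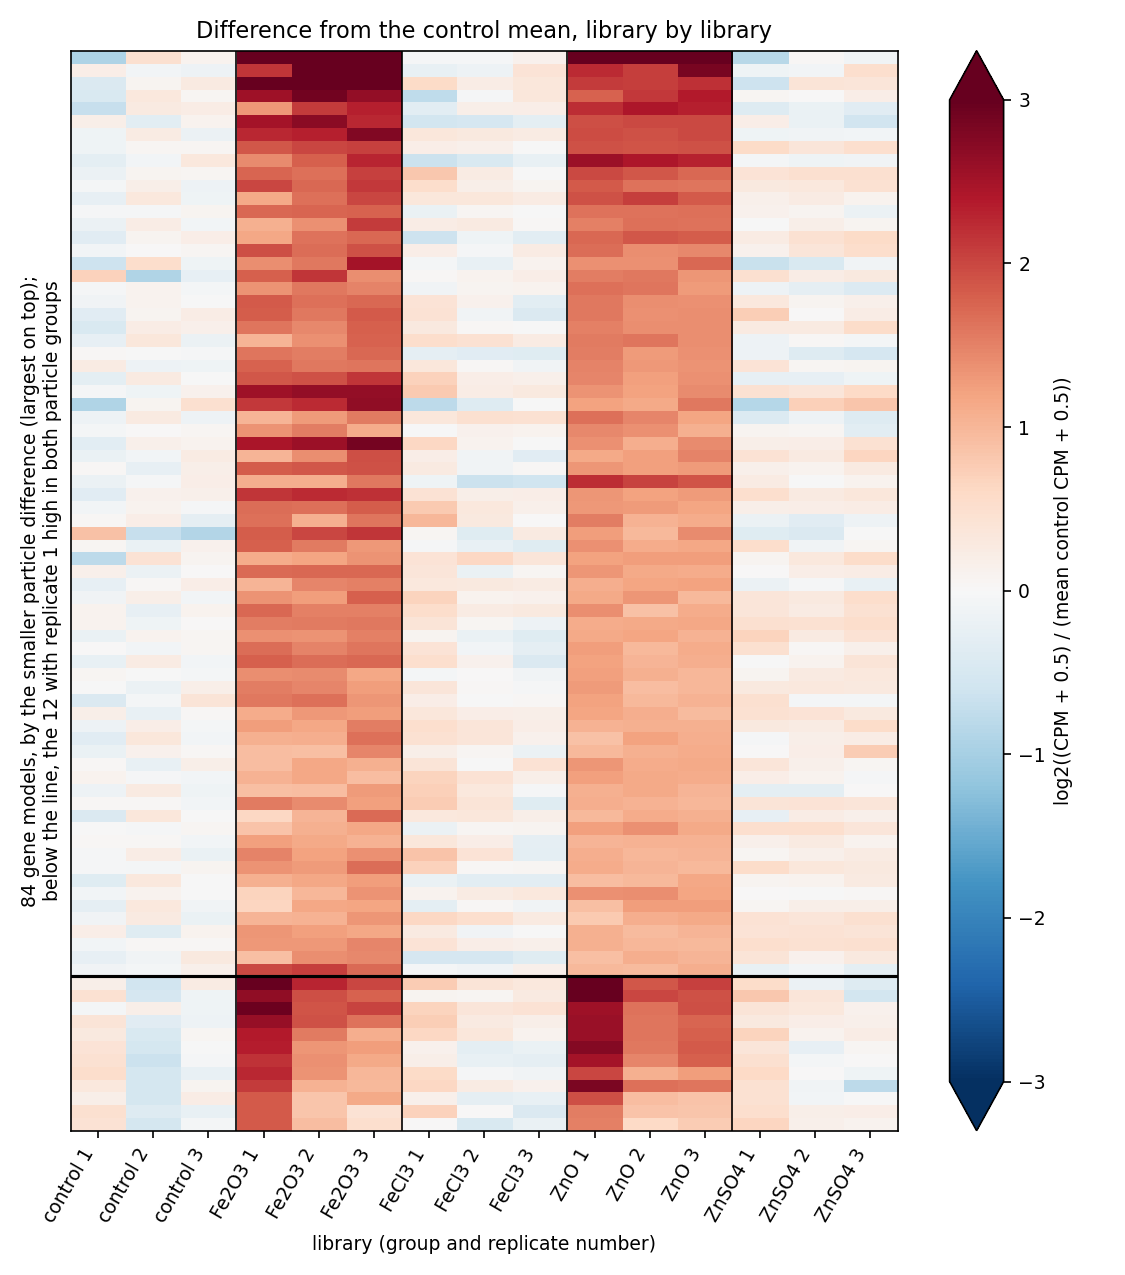
Difference from the control mean on the log2 scale (colour) for the 84 members (rows) in each of the 15 libraries (columns, by group and replicate). Members below the line are the 12 with replicate 1 high in both particle groups. The 6 particle libraries are red for nearly all members, with library medians from 1.25 to 1.63, while the 6 salt libraries have medians from 0.06 to 0.33, the highest being FeCl3 replicate 1.

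The particle libraries were separate from the rest for nearly every member. All 3 Fe2O3 particle libraries lay above all 3 controls for 83 members, and 33.9% of all 10012 gene models did so. All 3 ZnO particle libraries lay above all 3 controls for 84 members, against 32.8% of all models. Against the salt of the same metal, Fe2O3 particle libraries lay above all FeCl3 libraries for 83 members, against 28.6% of all models, and ZnO particle libraries above all ZnSO4 libraries for 83, against 33.3%. All 6 particle libraries lay above all 9 other libraries for 82 members, against 8.29% of all models. The rule used these same means, so nothing is read from the difference between these shares. In the pair of exceptions Fe2O3 replicate 3 was low: it had 21.4 CPM in one, below ZnSO4 replicate 1 at 23.4 CPM, where ZnO particle replicate 2 had 22.7 CPM, and 13.5 CPM in the other, below control replicate 1 at 13.8 CPM and FeCl3 replicate 1 at 16.2 CPM.

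wlab.2469.1 stood highest by the smaller of its differences with the 2 particles. Its control libraries had 2.08, 6.39 and 4.83 CPM, or 4.43 ± 2.18 CPM (SD, n = 3). The Fe2O3 particle libraries had 88.7, 113 and 124 CPM, or 108 ± 17.9 CPM (SD, n = 3), and the ZnO particle libraries 51.5, 57.2 and 64.6 CPM, or 57.8 ± 6.55 CPM (SD, n = 3). These means were 24.4 times and 13 times the control mean, and every particle library lay above every control and salt library. The FeCl3 libraries had 4.3, 4.3 and 4.87 CPM and the ZnSO4 libraries 2.28, 4.54 and 4.1 CPM, within the range of the controls.

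The next in that order gave smaller differences at low control levels. The member ranked 2 had 8.4, 4.75 and 8.86 CPM in the controls, 79.5, 38 and 30.7 CPM with Fe2O3 particles and 66.6, 28.2 and 31.8 CPM with ZnO particles. Its FeCl3 libraries had 12.7, 9.79 and 9.2 CPM and its ZnSO4 libraries 11, 6.42 and 5.51 CPM. Replicate 1 was at about double the level of replicates 2 and 3 in both particle groups, and the particle libraries did not overlap with the others. The member ranked 3 had 2.43, 1.9 and 1.8 CPM in the controls, 10.8, 21.7 and 24.4 CPM with Fe2O3 particles and 11.5, 10.1 and 17.8 CPM with ZnO particles. All of its salt libraries lay between 1.68 and 3.11 CPM, far below its particle libraries.

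The member ranked 5 combined a large difference with a high level, and was 3 in the order of level. Its controls had 138, 196 and 226 CPM, its Fe2O3 particle libraries 1761, 1859 and 1732 CPM, and its ZnO particle libraries 794, 785 and 859 CPM. The mean was 9.56 times the control with Fe2O3 particles and 4.36 times with ZnO particles. The FeCl3 libraries had 277, 217 and 235 CPM and the ZnSO4 libraries 121, 244 and 240 CPM, so the salt libraries overlapped with the controls and stayed far below the particle libraries.

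The member ranked 6 had 3.11, 5.69 and 4.65 CPM in the controls, 28.7, 36.6 and 30.7 CPM with Fe2O3 particles and 16.5, 21.1 and 25.3 CPM with ZnO particles. Its salt libraries lay between 2.45 and 5.82 CPM, close to the controls and below every particle library.

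wlab.239302.1 had the highest mean level of the members. Its controls had 847, 821 and 808 CPM, or 825 ± 19.6 CPM (SD, n = 3). The Fe2O3 particle libraries had 2497, 2380 and 2723 CPM, or 2533 ± 174 CPM (SD, n = 3), and the ZnO particle libraries 2410, 2012 and 2134 CPM, or 2185 ± 204 CPM (SD, n = 3). The FeCl3 libraries had 690, 648 and 639 CPM and the ZnSO4 libraries 738, 627 and 587 CPM. All 6 salt libraries lay below all 3 controls, with L of -0.32 and -0.34, while the particle means were 3.07 and 2.65 times the control mean.

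The member ranked 2 in level had 457, 456 and 492 CPM in the controls, 1539, 1583 and 1588 CPM with Fe2O3 particles and 1443, 1441 and 1467 CPM with ZnO particles. Its FeCl3 libraries had 410, 487 and 466 CPM and its ZnSO4 libraries 512, 497 and 413 CPM, on both sides of the controls. At the other end, the member with the lowest mean level, which was also nearest the median in its smaller particle difference, had 2.36, 2.63 and 3.42 CPM in the controls, 6.25, 8.17 and 12.1 CPM with Fe2O3 particles and 6.81, 7.22 and 8.82 CPM with ZnO particles. Its salt libraries lay between 2.11 and 4.64 CPM, and none reached the particle libraries.

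**Figure D2:**
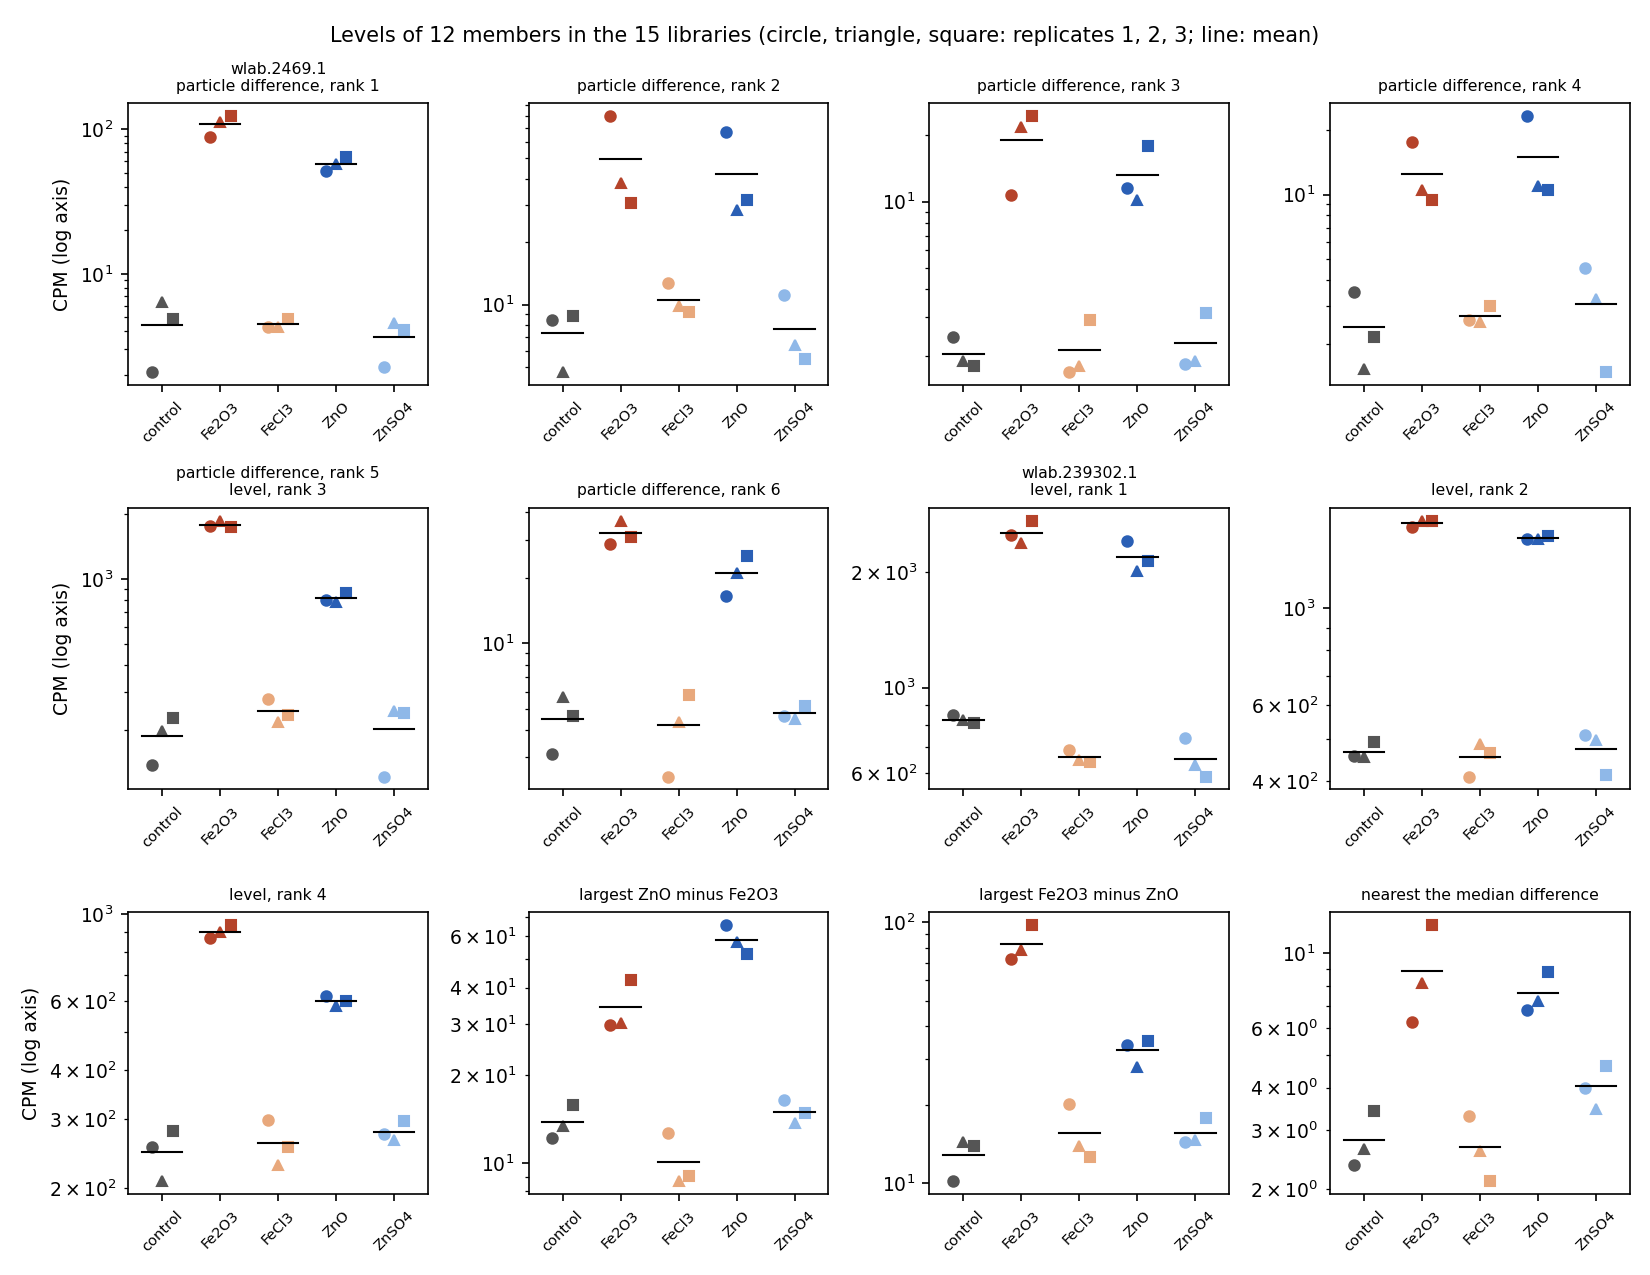
Level in CPM (log axis) of described members by group, for the 12 described members. Circles, triangles and squares are replicates 1, 2 and 3, and lines are group means. For wlab.2469.1 the particle means were 108 and 57.8 CPM against a control mean of 4.43 CPM, and for wlab.239302.1 they were 2533 and 2185 CPM against 825 CPM.

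Within the limits of 0.5 the salt values of the members were more often above control than below. L with FeCl3 ran from -0.46 to 0.50 with a median of 0.12, and L with ZnSO4 from -0.39 to 0.49 with a median of 0.18, while the medians over all models within the limits on level were -0.04 and -0.29. Both salts gave L above 0 in 49 members, against 22.9% of models within the limits on level. Both gave L below 0 in 4, against 42.8%, and the signs differed in 31, against 34.3%. All 3 ZnSO4 libraries lay above all 3 controls for 26 members, against 23.3% of all models, and below them for 2, against 36.4%. With FeCl3 the counts were 13 members above, against 23% of all models, and 2 below, against 24.6%. These counts come from contrasts the rule used, and nothing is read from them.

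Whether the members counted as flat in the salts depended on the scaling. With CPM scaled by total counts alone, all 84 kept L of at least 1 with both particles, with medians of 1.81 with Fe2O3 and 1.67 with ZnO. L stayed within 0.5 of control for 49 of them with FeCl3, 18 with ZnSO4 and 10 with both. The rule then found 52 models, of which 10 were among the 84. With DESeq2 size factors it found 86, of which 76 were among the 84. Scaling by total counts moved the median L of all models averaging 5 CPM or more. With FeCl3 it went from -0.04 to 0.22 and with ZnSO4 from -0.30 to 0.22. With the particles it also rose, from -0.10 to 0.13 with Fe2O3 and from -0.14 to 0.24 with ZnO. An upward shift of all models leaves members past a lower limit, so nothing is read from all 84 keeping L of at least 1. When each group was instead centred on its median model, the rule found 66 models, of which 43 were among the 84. The gap between the smaller particle L and the larger salt L was less affected: its median over the members was 0.995 with TMM and 0.89 with total counts, and its lowest values were 0.53 and 0.29. Under TMM the rule fixes this gap above 0.5, and a scaling shifts all models of a library alike, so the gap is a description of the members, while the distance of the salts from control is relative to the scaling used.

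Membership also rested on single libraries. Leaving out each of the 15 libraries in turn, the rule found from 69 to 100 models, and 29 of the 84 (34.5%) were found every time. Without control replicate 1 it found 73 models, of which 51 were among the 84. Without control replicate 2 it found 81 with 61 shared, and without control replicate 3 it found 82 with 69 shared. Leaving out any 1 exposed library kept between 66 and 82 of the 84.

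A library left out of the choice met its condition for most members so chosen, apart from FeCl3 replicate 1. In the controls the members' share was below or about equal to that of all models. For each library, members were chosen again without it, and the same limit was then applied to that library alone. Its L was still taken against a control mean that had helped choose those members, so these shares are a description. For Fe2O3 particles 74 of 88, 78 of 85 and 72 of 82 members had L of at least 1 in the library left out, or 84.1%, 91.8% and 87.8%, against 16.6%, 16.3% and 19% of all models within the limits on level. For ZnO particles 69 of 79, 69 of 83 and 72 of 83 did so, or 87.3%, 83.1% and 86.7%, against 13.4%, 12.7% and 12.6%. No member fell to 0 or below in a left-out particle library, the lowest L being 0.35 with Fe2O3 and 0.59 with ZnO.

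For the salts, the share within 0.5 of control in the library left out was 50%, 94% and 94.2% for FeCl3 replicates 1, 2 and 3, against 46.4%, 63.8% and 68.6% of all models. It was 78.6%, 92.8% and 73.3% for ZnSO4, against 51%, 51.3% and 45.2%. For the controls, the share within 0.5 of the other two was 74%, 76.5% and 91.5%, against 81.2%, 76.5% and 91.4%. The TMM factors used all libraries, and each left-out library was read against a control mean that had helped choose the members. Only its own levels had no part in the choice, so nothing is read from the difference between these shares. The controls were shared by all 4 contrasts.

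**Figure D3:**
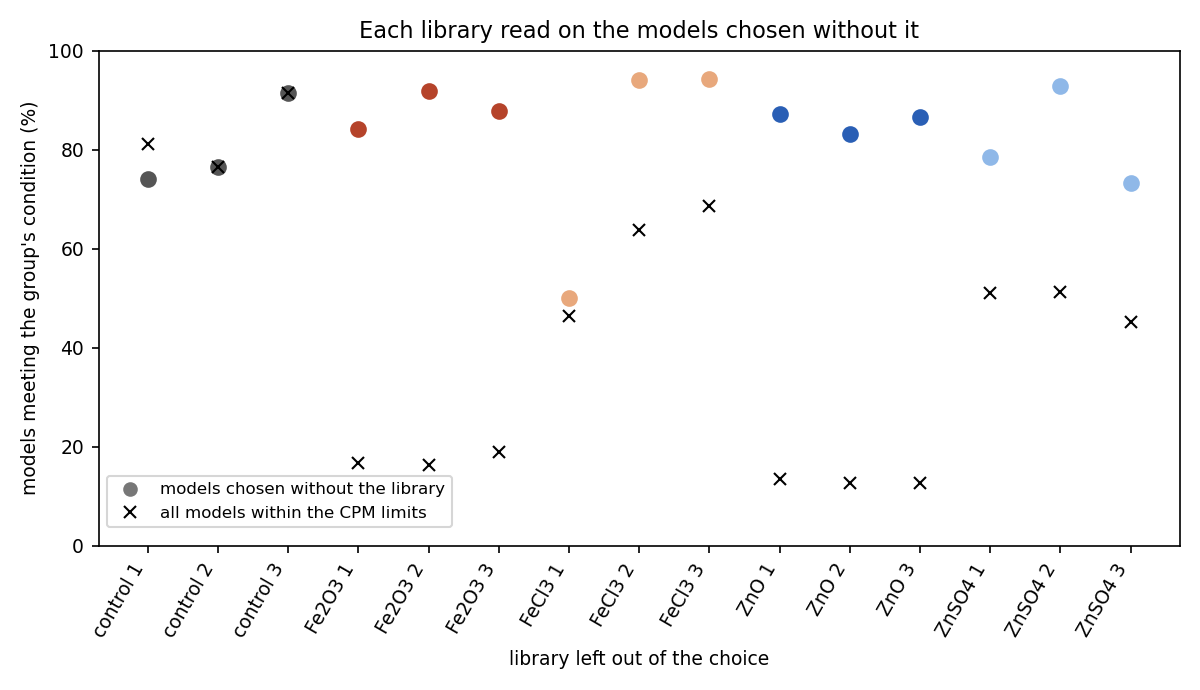
Share (percent, vertical axis) of models that met the condition of the rule in a library left out of the choice, for each of the 15 libraries. Circles are models chosen without that library and crosses are all models within the limits on level. Each library was read against a control mean that had helped choose the models. In the 6 particle libraries the members' share was from 83.1% to 91.8%, and in the salt libraries it was from 50% in FeCl3 replicate 1 to 94.2% in FeCl3 replicate 3.

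Between the 2 particles, where the rule fixed no direction, 16 of the 84 members differed at an adjusted p below 0.05 in edgeR's quasi-likelihood test with Benjamini-Hochberg adjustment over all 10012 gene models. They made up a share near that of all gene models, of which 19.2% were called. Of the 16, 15 were lower with ZnO particles than with Fe2O3 particles and 1 was higher, while of all models 11.7% were lower and 7.49% higher. The rule cut both particle means at the same limit. On the ZnO limit alone 117 models failed, against 24 on the Fe2O3 limit. Nothing is therefore read from the split of directions among the members. The log2 difference of ZnO from Fe2O3 particles had a median of -0.22 over the members and 0.01 over all models. It was below 0 for 62 members, against 48.5% of all models. Those called lower ran from -0.36 to -1.36, and 3 of them differed at least 2-fold.

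The replicate numbers were taken to pair the libraries of the 2 particle groups in added fits, and the count rose with that pairing. The count given above and the p-values below come from the fit without it, unless the block is named. The pairing came from correlations in these same data, of 0.58, 0.32 and 0.37, and the labels do not give it. With the replicate number as a block in a fit of the particle libraries alone, 31 members were called, against 30.5% of all models in that fit, and 27 of them were lower with ZnO particles, against 16.2% of all models. Without the block that fit called 22 members, against 21% of all models. With the block in the fit of all 15 libraries 21 members were called, against 19.8% of all models. The calls thus rose among all models as well as among the members. The count fell to between 6 and 13 when 1 library was left out: it was 10, 6 and 8 without ZnO particle replicates 1, 2 and 3. With scaling by total counts it was 8, with 6 lower and 2 higher. The share of all models called was not counted with 1 library left out or with total counts. These changes are therefore not read as changes of the members.

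The member with the largest difference in that direction had 72.2, 78.5 and 97.5 CPM with Fe2O3 particles and 33.8, 27.9 and 35 CPM with ZnO particles. It had 10.2, 14.3 and 13.9 CPM in the controls, and its salt libraries lay between 12.6 and 20 CPM. The log2 difference was -1.36 with an SE of 0.186, or 2.57-fold (edgeR's quasi-likelihood test, adjusted p = 0.000156), and the 2 particle groups did not overlap. The abundant member ranked 5 had -1.13 with an SE of 0.231, or 2.19-fold (edgeR, adjusted p = 0.00303). Its lowest library with Fe2O3 particles, at 1732 CPM, was about double its highest with ZnO particles, at 859 CPM.

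For wlab.2469.1 the log2 difference was -0.91 with an SE of 0.277, or 1.88-fold lower with ZnO particles (edgeR's quasi-likelihood test, adjusted p = 0.0314). This call was lost with scaling by total counts, where the difference was -0.76, and without any 1 of Fe2O3 replicates 2 and 3 or of the 3 ZnO replicates, while all 3 ZnO particle libraries lay below all 3 Fe2O3 particle libraries. The member ranked 4 in level had 869, 903 and 938 CPM with Fe2O3 particles and 619, 585 and 600 CPM with ZnO particles, with no overlap, and its difference was -0.59 with an SE of 0.135 (edgeR, adjusted p = 0.00678).

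The member ranked 6 had a difference of -0.61 with an SE of 0.251, which missed the threshold (edgeR, adjusted p = 0.105) and passed it with the replicate block (edgeR, adjusted p = 0.0335). Its particle groups did not overlap.

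The 1 member called higher with ZnO particles had 29.9, 30.2 and 42.6 CPM with Fe2O3 particles and 65.5, 57.5 and 52.2 CPM with ZnO particles, and it is shown because it has the largest difference in that direction. Its controls had 12.2, 13.5 and 15.8 CPM. The difference was 0.77 with an SE of 0.172, or 1.7-fold (edgeR, adjusted p = 0.00565), and the particle groups did not overlap. In wlab.239302.1, the most abundant member, the difference was -0.21 with an SE of 0.133 and missed the threshold (edgeR, adjusted p = 0.292).

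**Figure D4:**
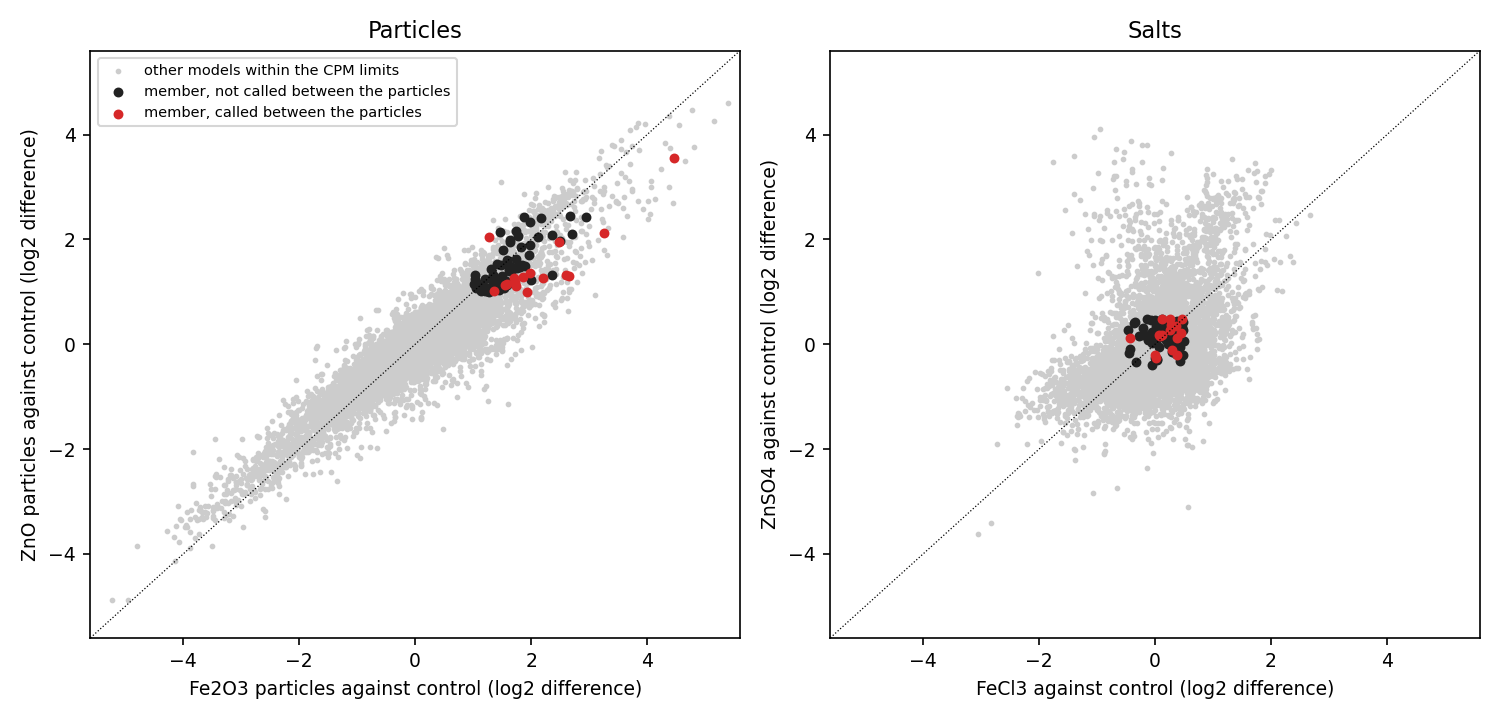
L (log2) with Fe2O3 particles against ZnO particles (left) and with FeCl3 against ZnSO4 (right) for all gene models within the limits on level, in grey, and the 84 members, in black, or red for the 16 called between the particles. By the rule the members lie at or above 1 on both left axes and within 0.5 of 0 on both right axes. On the left 62 members lie below the dotted line of equal difference, against 47.2% of models within the limits on level.

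Between the 2 salts, 19 members differed by the same test, 10 higher and 9 lower with ZnSO4 than with FeCl3, against 53.1% of all gene models, of which 22.7% were higher and 30.4% lower. The rule bounds both salts near control and so bounds this difference too, and a smaller share than among all models is not a result about the members. Differences called higher ran from 0.29 to 0.84 and those called lower from -0.31 to -0.75, so none reached 2-fold. The split depended on single libraries: without FeCl3 replicate 1 there were 33 calls, 32 of them higher with ZnSO4, without FeCl3 replicate 2 there were 10, and without FeCl3 replicate 3 there were 15, 10 of them lower. With scaling by total counts there were 20, all higher. No direction between the salts is therefore given for the members as a group. The shares of all models called in these other fits were not counted.

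The particle-minus-salt gap was tested for a difference between the metals, as (ZnO particles - ZnSO4) - (Fe2O3 particles - FeCl3). edgeR's quasi-likelihood test called 19 members, 18 below 0, where the gap was smaller for zinc, and 1 above, against 28.3% of all gene models, of which 13.9% were below and 14.4% above. The rule used all 4 exposure means behind this gap and held both salts near control, so nothing is read from the share of members called. The median over the members was -0.29, against 0.08 over all models, and 60 members were below 0, against 44.5% of all models. The values of those below ran from -0.45 to -1.89. The count ranged from 12 to 34 when 1 library was left out. It was 34 without FeCl3 replicate 1 and 12 without Fe2O3 particle replicate 2 or without FeCl3 replicate 2. The share of all models called was not counted in those fits.

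Values for the other gene model classes stood beside these as follows. Of the 54 models in the opposite class, 8 were higher and 2 lower with ZnO than with Fe2O3 particles, with a median of 0.16. Of the 168 models doubled in all 4 exposures, 18 were higher and 13 lower, also with a median of 0.16. In the test of the gap between metals, 9 models of the opposite class were above 0 and none below, and of the 168 models 2 were above and 103 below, with a median of -0.84. The classes were chosen by these same group means and share all libraries, so no test between them was made.

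A subset of the members had higher levels in replicate 1 of both particle groups. In 12 of the 84 (14.3%), replicate 1 was at least 0.5 above the mean of replicates 2 and 3 on the log2 scale with both particles. The same held for 129 of 10012 gene models (1.29%). Among the 860 models doubled with both particles it held for 31 (3.6%), of which 19 were not members. None of the 84 were at least 0.5 below in both, against 0.719% of all models. The subset was chosen after these values were seen, so it is given with no test. In the other 72 members the median differences were -0.12 with Fe2O3 particles and 0.06 with ZnO particles.

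For the 12, replicate 1 was 1.77 to 2.31 times the mean of the other two with Fe2O3 particles and 1.65 to 2.36 times with ZnO particles. In the controls, FeCl3 and ZnSO4 groups the median log2 difference of replicate 1 was 0.66, 0.40 and 0.51, so replicate 1 also tended to be high outside the particle groups, being the highest of 3 in 9, 11 and 12 of these members. In the other 72 members it was the highest in 14, 46 and 24, with medians of -0.15, 0.22 and -0.03, so a high FeCl3 replicate 1 was common to both sets. The members ranked 2, 4, 7 and 8 by the smaller particle difference were among the 12. Each of them had L of at least 2 with both particles, which held for 8 members in all. The member ranked 4 had 17.6, 10.5 and 9.42 CPM with Fe2O3 particles and 23.3, 11 and 10.4 CPM with ZnO particles. Its controls had 3.48, 1.53 and 2.16 CPM.

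The 12 also held both exceptions to the separation of the particle libraries. Compared with the control of the same number, the median log2 difference with Fe2O3 particles over the 12 was 1.86, 1.87 and 1.20 in replicates 1, 2 and 3, and with ZnO particles it was 2.25, 2.01 and 1.76. Without the replicate 1 libraries the rule found 88 models, among them 9 of the 12 and 53 of the other 72. The labels do not say what the replicate numbers stand for, and what sets replicate 1 apart was not tested.

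**Figure D5:**
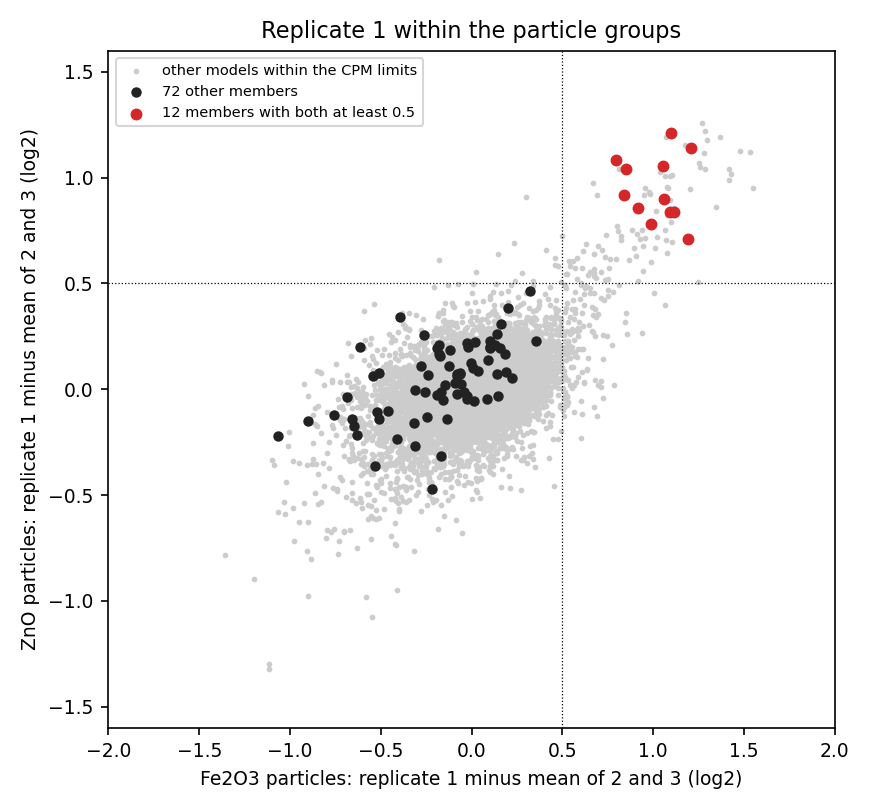
Level of replicate 1 relative to the mean of replicates 2 and 3 (log2) with Fe2O3 particles (horizontal axis) and with ZnO particles (vertical axis) for all gene models within the limits on level, with the 84 members marked; 2 models lie outside the plotted range. The 12 members in red lie at or above 0.5 on both axes and none at or below -0.5 on both.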

How the data were processed

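Libraries were made from polyadenylated RNA with standard Illumina chemistry, per the labels' protocols. The deposited table holds the authors' read counts per gene model, whole numbers with no normalization, for all 15 libraries. The submitters' processing notes name STAR, RSEM 1.3.0, CASAVA 2.17 and Trim Galore 0.4.0, while the table's own name points to HTSeq, so which program made the counts is not settled here. For the genome build and the gene models: not given in the sources used here.

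Members and classes were chosen with earlier results of these data known. The software was edgeR 4.0.16, limma 3.58.1 and DESeq2 1.42.0 under R 4.3.3. CPM used TMM factors over all rows. Tests used edgeR's filter on low counts (10012 of 10300 models kept), one quasi-likelihood fit of all 5 groups and Benjamini-Hochberg adjustment over all models kept, with a threshold of 0.05. The steps were also run on simulated counts, drawn with no deviation shared by libraries of the same number. Those runs do not bear on the pairing, and nothing is read from them here. The 2 identifiers named are the member with the largest smaller-of-2 particle differences and the one with the highest mean level. Other members described were the next 5 by that difference, the next 3 by level, the largest difference between particles in each direction and the one nearest the median. No gene lists by function could be counted, since no identifier matched a name. Samples of the same number deviated together between the 2 particle groups, with correlations of 0.58, 0.32 and 0.37 over 7905 models. The replicate numbers were therefore taken to pair those groups, but only in added fits. The main counts and p-values come from the fit without that pairing, unless the replicate block is named. All 3 correlations also passed 0.1 for ZnSO4 with ZnO particles, ZnSO4 with Fe2O3 particles and control with ZnO particles, 4 of 10 pairs of groups in all. Between the salts they were -0.25, 0.14 and -0.41, and with FeCl3 no pair of groups had all 3 above 0.1. Total counts from 33473041 to 48969454 limit the precision of members with few reads, and alternatives are given in the closing section.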

Additional observations from a re-analysis of the deposited data

Results flagged for a closer look

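Among the members, 19 had a particle-minus-salt gap called different between zinc and iron by edgeR's interaction test. They were picked out by that call alone. The rule for members used all 4 exposure means behind the gap, so nothing is read from their number. Of the members described in the report, the one ranked 4 in level had an interaction of -0.683 (edgeR, adjusted p = 0.0146). The member with the largest excess of Fe2O3 over ZnO particles had -1.37 (edgeR, adjusted p = 0.00147). In both, the gap between particle and salt was smaller for zinc. The 19 of 84 stand beside 28.3% of all gene models called in the same test, and the rule limits the values this test compares. Iron and zinc were given at different doses, and dose and metal cannot be told apart.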

How the results depend on the processing

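The number of members found, 84, became 52 with scaling by total counts and ranged from 69 to 100 when 1 library was left out. Members called between the particles, 16, became 8 with total counts, 7 at an adjusted p below 0.01, 31 with the replicate block in the particle libraries alone, and 6 to 13 with 1 library left out. Members called between the salts, 19, became 7 at an adjusted p below 0.01 and 10 to 33 with 1 library left out, and the majority turned to lower with ZnSO4 without FeCl3 replicate 3, with 15 called. The median salt difference then was -0.033, and it was 0.39 without FeCl3 replicate 1. Interaction calls, 19, became 8 at an adjusted p below 0.01 and 12 to 34 with 1 library left out. With the replicate block in the fit of all libraries the 3 counts were 21, 22 and 24. DESeq2 gave 19, 20 and 24, limma-voom 19, 19 and 20. Beside the particle counts of 31 and 21 with the block, 30.5% and 19.8% of all models were called. For the other alternatives the share of all models was not counted, so their changes are not read as changes of the members. Same-numbered libraries also deviated together between ZnSO4 and each particle group, but in no group were all 3 so paired with FeCl3, so in the tests that use FeCl3 a shared number was not taken as a pairing. Precision is limited by 3 libraries a group and by reads in the low members, and the cause of each change was not tested.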
